A study of Drosophila melanogaster with 3 samples.

Results

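The weaker shared peaks were 610 regions of the fly genome at which Jarid2 chromatin immunoprecipitation gave a peak in every replicate, although the region was too weak to enter the reproducible peak list. They were chosen by signal rank from the 30000 peaks listed for the pooled replicates. That list was deposited as peaks and background together, so a peak in it need not be a site of Jarid2 binding. Each had a pooled signal below that of every peak in the list thresholded by irreproducible discovery rate (IDR), which held 5464 peaks. Each summit lay within 200 bp of a summit among the 10000 strongest peaks of each of the 3 replicates and over 300 bp from every IDR summit. A peak summit is the position of highest signal within a peak, and rank 1 is the strongest peak of a list.

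The study mapped Jarid2 by ChIP-seq, the sequencing of DNA pulled down with a protein, in Drosophila melanogaster whole embryos of mixed sex, 0 to 24 h after laying, in 1 group of 3 biological replicates. All 3 came from the transgenic line Jarid2-GFP, in which green fluorescent protein is fused to the C-terminal end of Jarid2, and an antibody against GFP was used for the pull-down. Whether the line also carried an untagged Jarid2 was not given, and no line without the tag was analysed here. Whole embryos over this age range mix all cell types and stages, and read depth was unknown because the peak lists hold no read numbers.

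Jarid2 is a DNA- and nucleosome-binding protein that associates with Polycomb repressive complex 2 (PRC2), which methylates the tail of histone H3. Polycomb complexes keep developmental regulators such as homeobox genes silent outside the cells that need them. In flies they are brought to DNA elements bound by factors such as PHO and GAF (GAGA factor), whose binding letters were searched for at the summits.

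The 4 sequences that follow show where such weaker peaks lay. They are plus-strand sequence of the Release 6 assembly, in dm6 coordinates, and capitals mark motif letters found on either strand. The first lies directly upstream of a summit at the start of CG8907, at chr3R:17008174-17008268, and this stretch held none of the motifs searched. The second lies directly upstream of the summit at the start of CG5674, at chr2L:17963280-17963378, and held a DNA replication-related element (DRE, TATCGATA) and the PHO letters GCCAT. The third is centred on a summit in an intron of Bicra, at chr3R:29077684-29077883, and held GCCAT. The fourth is centred on an intergenic summit nearest to CG12123, at chrX:8445124-8445323, and held a run of GT repeats. Where a window ran into an untranslated region (UTR), the sequence printed is the stretch outside it.
CG8907: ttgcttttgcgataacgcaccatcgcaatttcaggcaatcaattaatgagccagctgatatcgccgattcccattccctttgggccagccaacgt
CG5674: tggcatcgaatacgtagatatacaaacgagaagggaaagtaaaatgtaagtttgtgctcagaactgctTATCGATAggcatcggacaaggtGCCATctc
Bicra: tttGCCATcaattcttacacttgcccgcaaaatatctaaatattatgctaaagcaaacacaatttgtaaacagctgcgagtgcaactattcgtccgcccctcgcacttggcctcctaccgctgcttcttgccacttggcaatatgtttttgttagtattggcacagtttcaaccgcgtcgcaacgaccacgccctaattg
CG12123: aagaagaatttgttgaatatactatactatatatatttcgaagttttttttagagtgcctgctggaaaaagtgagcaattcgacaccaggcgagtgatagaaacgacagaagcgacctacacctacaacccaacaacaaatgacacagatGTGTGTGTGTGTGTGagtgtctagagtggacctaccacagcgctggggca

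Most weaker shared peaks sat just under the IDR limit. Their pooled signal, on the scale of the authors' caller, ran from 53.96 to 168.36 with a median of 151.6, and the weakest IDR peak had 168.385. Their median pooled rank was 6200.5. The deposited −log10 q-value, higher for more significant peaks, ran from 0.192 to 2.10 in members, with a median of 1.72. Its median in IDR peaks was 3.89. Some members were thus far from significant in the pooled list. Of the 884 pooled peaks at ranks 5465 to 6464 that were over 300 bp from an IDR summit, 373 (42.2%) met the rule. The share was 18.2% in the next 1000 ranks, 4.80% in the 1000 after those and 0.778% at ranks 8465 to 9464. Below the 10000th pooled rank there were 23 members, of which 19 had a stronger pooled summit within 300 bp. These shares follow from the rule, which selected on signal in both kinds of list, and are a description.

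**Figure D1:**
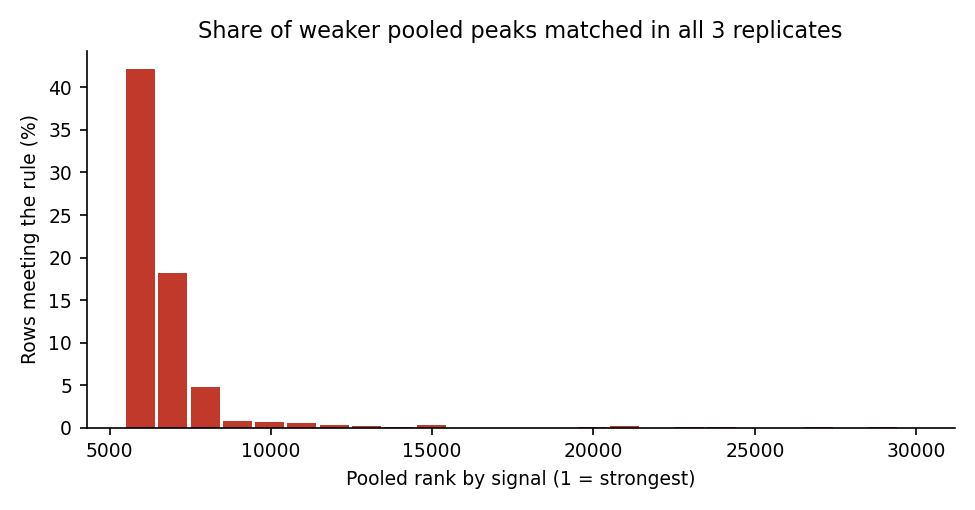
Share of weaker pooled peaks meeting the rule, in percent, by pooled rank in bins of 1000 ranks, for peaks over 300 bp from an IDR summit. The share was 42.2% in the first bin and 0.778% in the fourth.

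Of the 4049 weaker pooled peaks of rank up to 10000 and over 300 bp from IDR summits, 587 were matched in all 3 replicates, 1759 in 2, 1513 in 1 and 190 in none. At ranks 5465 to 5964, nearest to the IDR limit, 225 were matched in all 3 and 214 were not. The 3462 that were not matched in all 3 are called unshared weaker peaks. Their median pooled rank was 8070.5, so they were weaker in the pool than the members.

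The rule set the range of replicate ranks, since it required 10000 or better in each list of 30000 peaks and a pooled signal below every IDR peak. The ranks and counts that follow are a description. The median rank was 7092 in replicate 1, 7192.5 in replicate 2 and 7030 in replicate 3. Replicate 1 ranks ran from 2830 to 9970, replicate 2 ranks from 3927 to 9998 and replicate 3 ranks from 2223 to 9967. The poorest of a member's ranks was in replicate 1 for 182 members, in replicate 2 for 224 and in replicate 3 for 204. Of the 610 members, 348 were outside the 5464 strongest peaks of every replicate, 227 were inside them in 1 replicate, 34 in 2 and 1 in all 3. The median ratio of a member's poorest to its best rank was 1.44, and the highest was 4.13.

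**Figure D2:**
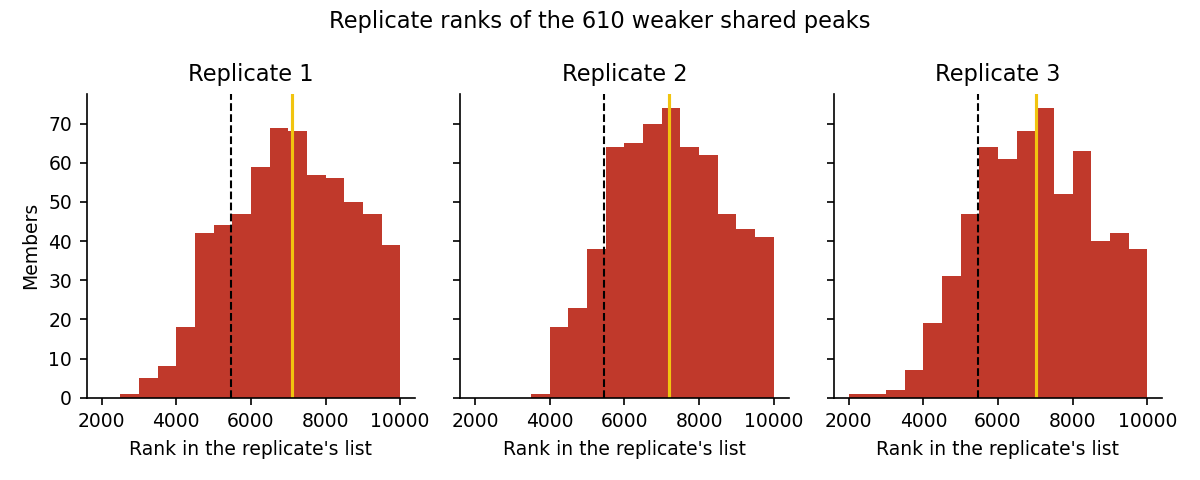
Number of members by rank in the list of each replicate, in bins of 500 ranks. The yellow line is the median (7092, 7192.5 and 7030) and the dashed line marks rank 5464, the size of the IDR list.

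The member inside the 5464 strongest of every replicate lay at the start of CG5674, 1 bp downstream, in a 5′ UTR, and overlapped btv, which encodes a ciliary dynein heavy chain. It ranked 4777, 4157 and 5454 in replicates 1, 2 and 3 and 5866 in the pool. Its nearest IDR summit was 49073 bp away. The 4 members with the next best poorest ranks were nearest to asRNA:CR43478, bnl, cno and Rdh. The bnl member, in an intron of this gene for the FGF ligand Branchless, ranked 5448, 5766 and 5688. The cno member, in an intron of the gene for the adherens junction protein Canoe, ranked 4515, 5792 and 5156. These members were chosen on their ranks, which limits how far the ranks can spread.

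Other members were uneven. The member 527 bp upstream of nrv1, which encodes a beta subunit of the sodium pump, ranked 4104, 9191 and 2223. It lay 302 bp from an IDR summit, the closest of any member. The member in an intron of the receptor tyrosine kinase gene Tie ranked 9456, 9432 and 3142. The member 909 bp upstream of disco, a zinc finger transcription factor gene, ranked 2830, 5697 and 8176. In nrv1 and Tie replicate 3 stood high, and in disco replicate 1 did. The member in an intron of ced-6, an engulfment adaptor gene, ranked 6423, 7869 and 2844. A member near lncRNA:CR32773 ranked 8213, 9690 and 3209, and replicate 3 stood high in both. Over all 610 members the best rank was in replicate 1 for 223, in replicate 2 for 177 and in replicate 3 for 210.

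At the rule's outer limit, the replicate rank of 10000, neighbouring ranks divided near-equal peaks. The last member by this measure, nearest to CG44838, ranked 6360, 9998 and 6311. The first peaks to miss it were a pair of pooled summits near bap, a homeobox gene of visceral muscle, which shared the replicate ranks 10002, 8623 and 5664. At the IDR limit, the last IDR peaks were nearest to lncRNA:CR45919, Plc21C and Sam-S, with pooled signals of 168.394, 168.387 and 168.385. The strongest members were nearest to CG5577, CG3376 and CG45088, with 168.36, 168.212 and 168.115. The weakest members by pooled signal were nearest to CG46443, Cyt-c1L and CG15152, at ranks 23647, 27276 and 29168. The CG46443 member shared the replicate ranks 4380, 8739 and 4850 with the member near lncRNA:CR46444, at pooled rank 5485, so it was not a separate replicate peak.

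Some members were closely spaced. The matched replicate summit had the member as its nearest pooled summit in all 3 replicates for 532 members and not for 78, and 22 members lay within 300 bp of a stronger member. Summit offsets were mostly short, with a median of 27 bp in replicate 1, 19 bp in replicate 2 and 27 bp in replicate 3. All 610 members were 450 bp wide, as were 98.7% of the 610 weakest IDR peaks and 69.9% of all IDR peaks.

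The strongest members lay in and around genes of many kinds. The member in a coding exon of CG5577 ranked 3756, 5822 and 9576 in the replicates. The member 995 bp downstream of the start of verm, which encodes a chitin-binding deacetylase of the tracheal tube, ranked 9151, 4891 and 6663. The member 691 bp upstream of a start of Irk1, an inwardly rectifying potassium channel gene, ranked 5240, 5783 and 7300. The replicate in which such a member was strongest differed from gene to gene.

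Some of the 20 strongest members had a transcription factor gene as the nearest. The share of such genes was not compared with that over all genes or other peaks. The intergenic member 1398 bp upstream of caup, an Iroquois homeobox gene, ranked 6011, 6884 and 5883. The intergenic member 1958 bp upstream of the forkhead gene FoxL1 ranked 4920, 6439 and 9245. The member 939 bp upstream of slou, a homeobox gene of muscle identity, ranked 9674, 4743 and 7984. The caup and slou genes also had an IDR summit within 1000 bp of a start, and FoxL1 had none. The intronic member of Bicra, a subunit gene of a SWI/SNF chromatin remodelling complex, ranked 4924, 7253 and 4903. The intronic member of bol, which encodes an RNA-binding protein of the male germ line, ranked 6580, 5885 and 6916. The other strongest members were nearest to CG10359, CG8907, CG12123, CG5004, CG43115 and the non-coding genes lncRNA:CR46322, lncRNA:CR44366, lncRNA:CR46444, lncRNA:CR44632 and lncRNA:CR32773.

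Most members lay over 1000 bp from transcription starts, unlike the IDR peaks taken as a whole. Of the 610 members, 104 (17.0%, exact 95% interval 14.1 to 20.3) had a summit within 100 bp of an annotated start, against 43.5% of IDR peaks (42.2 to 44.8). Within 1000 bp the share was 43.4% (39.5 to 47.5) against 72.9% (71.7 to 74.0). Introns over 1000 bp from a start held 32.8% of members (29.1 to 36.7) and 17.6% of IDR peaks (16.6 to 18.6). Intergenic sequence over 1000 bp from a start held 20.8% (17.7 to 24.3) and 8.24% (7.52 to 8.996). The Benjamini-Hochberg adjusted p of the two-sided Fisher exact test, over 31 tests, was 6.63e-39 for the share within 100 bp, 4.12e-45 within 1000 bp, 1.82e-16 for introns and 2.22e-18 for intergenic sequence. Peaks are not replicates of a condition, so these values and intervals cover counting error only. The rule also took members of lower signal than every IDR peak and kept them over 300 bp from IDR summits, many of which lay at starts. The tests cannot separate location from that selection.

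The 610 weakest IDR peaks lay between the members and the whole IDR list, with 23.8% within 100 bp and 53.6% within 1000 bp of a start. Of these weakest IDR peaks, 29.5% lay in introns and 14.9% in intergenic sequence over 1000 bp from a start, against 32.8% and 20.8% of members. The differences between the members and the weakest IDR peaks were not tested. The X chromosome held 15.6% of members and 15.5% of IDR peaks (adjusted p = 0.958, exact test). The members numbered 128 on 2L, 91 on 2R, 145 on 3L, 150 on 3R, 1 on chromosome 4 and 95 on X. In this order these were 21.0%, 14.9%, 23.8%, 24.6%, 0.164% and 15.6% of members. The shares of unshared weaker peaks were 19.5%, 17.4%, 24.4%, 24.4%, 0.751% and 13.6%. Those of IDR peaks were 19.2%, 20.3%, 21.6%, 23.0%, 0.366% and 15.5%. Only the X chromosome was tested.

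**Figure D3:**
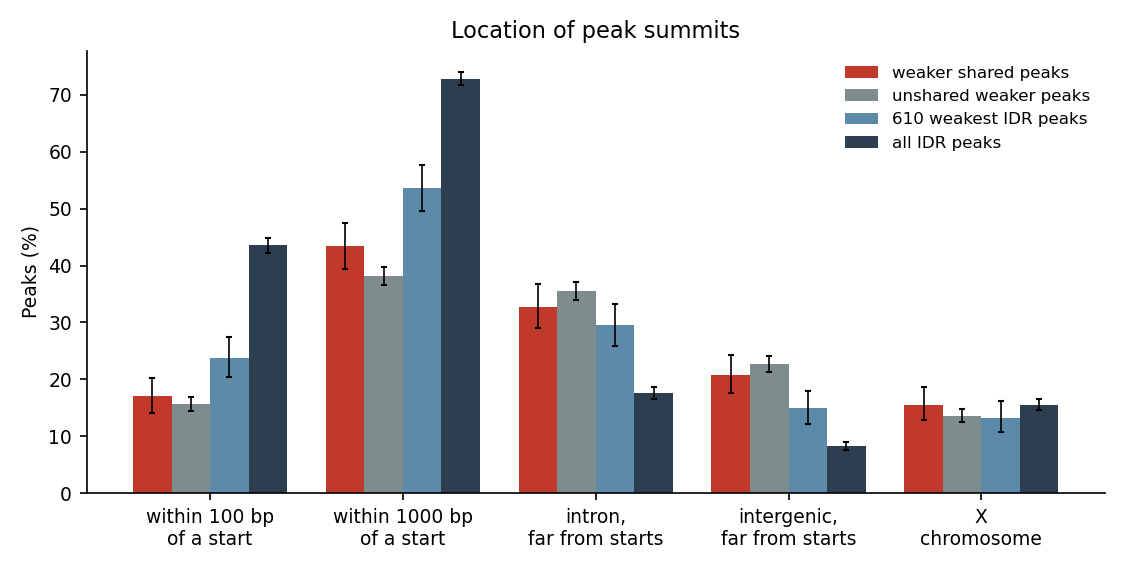
Percent of peak summits in each location for weaker shared peaks, unshared weaker peaks, the 610 weakest IDR peaks and all IDR peaks, with exact 95% intervals. The share within 1000 bp of a start was 43.4% in members and 72.9% in all IDR peaks.

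Against the unshared weaker peaks no location share passed the test at the main settings, with all 3 replicates required. Several passed, with all 3 still required, when unshared peaks of every pooled rank in the members' signal range were used. Several also passed with 2 replicates required, which gave more members. The 587 members of rank up to 10000 had 43.6% of summits within 1000 bp of a start (39.6 to 47.7), and the 3462 unshared peaks had 38.2% (36.5 to 39.8; adjusted p = 0.0593, exact test). An IDR summit lay within 1000 bp of 11.9% of these members (9.42 to 14.8) and of 8.64% of unshared peaks (7.72 to 9.62; adjusted p = 0.0593, exact test). Of the 16 features compared, the two-sided Fisher exact test passed 0 after adjustment, and 3 had an unadjusted p under 0.05. The start share difference was 5.45 percentage points, and it turned to -4.10 against the unshared peaks nearest in pooled rank. It was 0.793, 6.73 and 9.26 points when replicate 1, 2 or 3 was not required, and passed in the last 2 of these. The share near an IDR summit differed by 1.97, 3.41 and 3.197 points in the same order, and also passed in the last 2. The share within 100 bp of a start differed by -1.30, 3.55 and 7.34 points and passed in the last 2, and that of introns, at -7.22 points, passed when replicate 3 was not required.

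The start-site share fell along the pooled rank among IDR peaks, and just below the IDR limit the share in members was not above that in unshared peaks of the same ranks. Among IDR peaks it was 92.7% at ranks 1 to 1000, 58.3% at ranks 4001 to 5000 and 54.3% at ranks 5001 to 5464. At ranks 5465 to 5964 it was 45.3% of 225 members (38.7 to 52.1) and 57.9% of 214 unshared peaks (51.0 to 64.6). At ranks 5965 to 6464 it was 41.9% of 148 members and 47.5% of 297 unshared peaks. At ranks 7465 to 8464 it was 47.6% of 42 members and 37.0% of 833 unshared peaks. The differences within these bins were not tested.

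**Figure D4:**
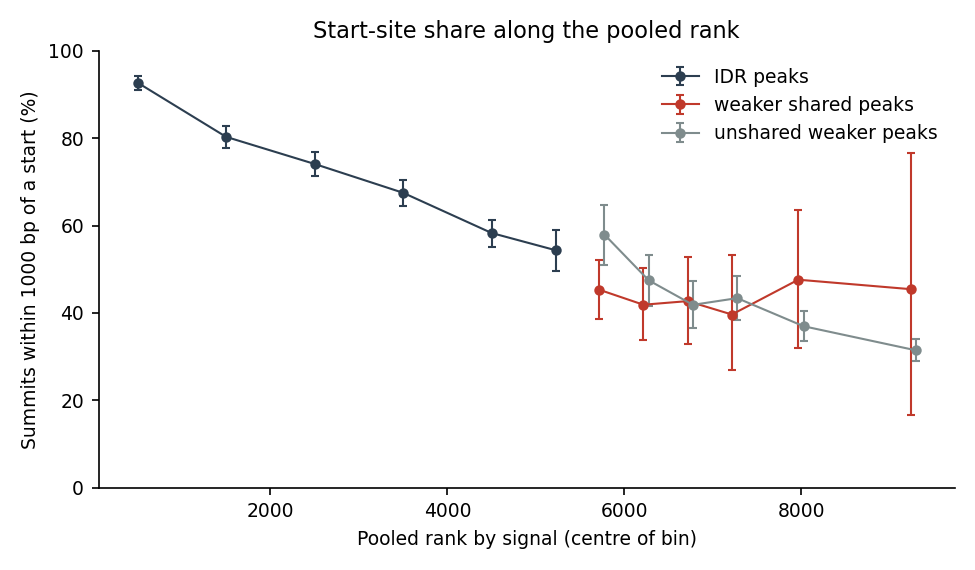
Percent of summits within 1000 bp of a start by pooled rank, with exact 95% intervals, for IDR peaks, weaker shared peaks and unshared weaker peaks. Near the IDR limit the members had 45.3% and the unshared peaks 57.9%.

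Of the 265 members within 1000 bp of a start, 147 lay downstream and 118 upstream (55.5% downstream), while 52.2% of such unshared weaker peaks, 57.5% of the weakest IDR peaks and 68.5% of all IDR peaks lay downstream. The 5′ UTRs held 91 members (14.9%), against 42.6% of IDR peaks and 13.1% of unshared weaker peaks. Introns held 275 members in all, intergenic sequence 189, coding exons 24, non-coding exons 19 and 3′ UTRs 12. In this order these were 45.1%, 31.0%, 3.93%, 3.11% and 1.97% of members. The shares of unshared weaker peaks were 45.6%, 33.5%, 3.50%, 2.83% and 1.42%, and those of IDR peaks 30.1%, 21.7%, 2.32%, 2.54% and 0.659%. The nearest start was that of a protein-coding gene for 494 members and of a non-coding RNA gene for 103. The non-coding share was 16.9% in members, 17.0% in unshared weaker peaks and 9.17% in IDR peaks. A tRNA gene start lay within 1000 bp of 2 members (0.328%), of 0.433% of unshared weaker peaks and of 0.275% of IDR peaks. The member at the start of CG31248 lay 382 bp from tRNA:Gly-TCC-1-1 and ranked 4700, 6611 and 8675. The other lay 304 bp upstream of tRNA:Gly-GCC-1-4 and ranked 9869, 9162 and 9537.

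At the main settings, with all 3 replicates required, none of the 10 motifs passed the test against either peak set. Some passed under other settings with all 3 still required, and some with 2 replicates required, which gave more members. Against IDR peaks 3, 3 and 2 motifs passed when replicate 1, 2 or 3 was not required, and 4 passed with the 15000 strongest peaks of each replicate. GAF differed from IDR peaks by -3.24 points, and by -3.71 and -7.52, both passing, when replicate 1 or 2 was not required. The initiator letters differed from IDR peaks by -3.16 points, and by -7.12, -6.47 and -4.40, all passing, when replicate 1, 2 or 3 was not required. Motifs were searched as exact letters on both strands in 200 bp centred on the summit. The GAF letters GAGAG occurred at 28.0% of members, 25.2% of unshared weaker peaks and 31.3% of IDR peaks, and at 24.2% of windows of this length at all 23581 start sites. The PHO letters GCCAT occurred at 29.8%, 33.1% and 27.6% of the same peak sets, and at 30.7% of start sites. The GT repeat GTGTGTG, which the zinc finger protein Combgap binds, occurred at 11.1%, 10.4% and 12.4%, and at 6.62% of start sites. In windows centred 1000 bp to either side of member summits the shares were 23.9% for GAGAG, 33.2% for GCCAT and 7.54% for GTGTGTG.

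The initiator letters TCAGT occurred at 41.2% of the 587 members and 35.6% of unshared peaks (adjusted p = 0.0581, exact test). This difference of 5.64 points was 1.00, 4.34 and 5.71 when replicate 1, 2 or 3 was not required, and passed in the last 2 of these. It was 5.75 and passed without members close to a stronger member. They occurred at 30.4% of member flanks and 42.1% of start sites. The core promoter letters GGTCACACT, bound by M1BP, occurred at 2 members (0.328%) and 1.48% of IDR peaks (adjusted p = 0.0593, exact test), and at 3.69% of start sites. The DRE letters TATCGATA occurred at 7 members (1.15%), 1.48% of IDR peaks and 5.44% of start sites. The early embryonic activator Zelda's letters CAGGTAG occurred at 4 members and 1.02% of start sites. The E-box CACGTG occurred at 11 members and 2.81% of start sites, TATAAA at 139 members and 26.1%, and the AP-1 letters TGACTCA at 16 members and 1.64%. Of the 10 motifs, 1 had an unadjusted p under 0.05 in the two-sided Fisher exact test against unshared peaks and 1 against IDR peaks.

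**Figure D5:**
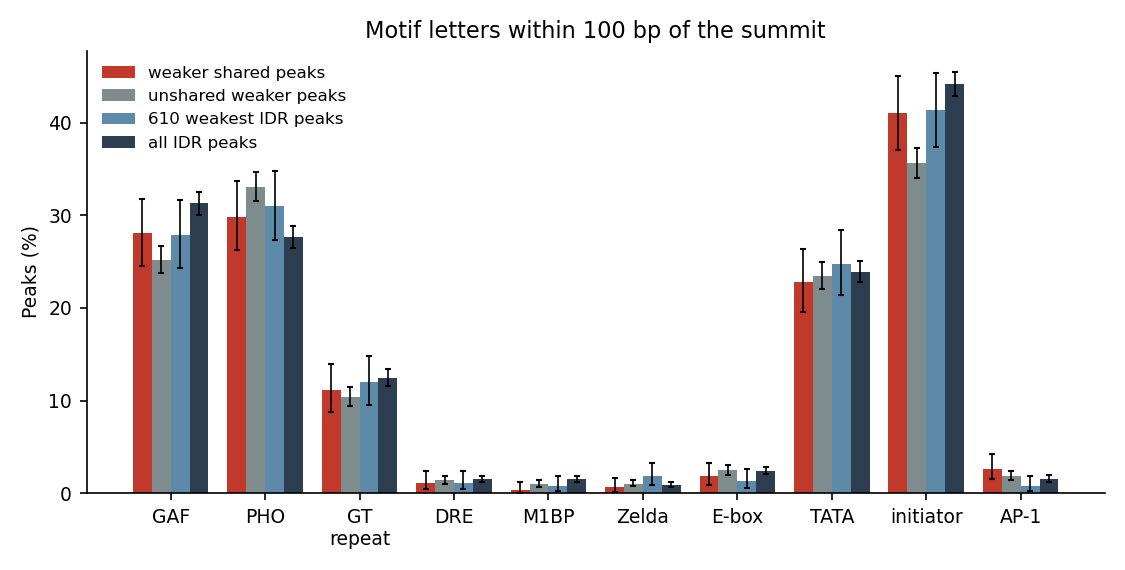
Percent of 200 bp summit windows holding each motif, with exact 95% intervals, in the 4 peak sets. The initiator letters were found at 41.0% of members and 44.1% of all IDR peaks, and the M1BP letters at 0.328% and 1.48%.

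At the level of genes, 269 of 13945 protein-coding genes (1.93%) had a member within 1000 bp of a start, and 3556 (25.5%) had an IDR summit there. Of the 269 genes, 102 had both and 167 had a member without an IDR summit. Since each member lay over 300 bp from every IDR summit, a gene with both carried separate summits. Genes with an IDR summit thus made up 37.9% of the member genes, and 29.7% of the 1321 genes with an unshared weaker summit. These shares were not tested.

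Of 63 Polycomb target transcription factor genes, 3 (4.76%, exact 95% interval 0.993 to 13.3) had a member, slou, disco and the Hox gene lab, and all 3 also had an IDR summit, as did 54 of the 63. The lab member, in a coding exon 650 bp downstream of the start, ranked 8048, 6897 and 9248. Among PRC1 and PhoRC genes 1 of 13 (7.69%) had a member, Kdm2, a histone demethylase gene, ranking 6562, 7242 and 4540. None of 9 PRC2 genes and none of 17 Trithorax group genes had one. These counts stand beside the 1.93% of all protein-coding genes with a member and the 25.5% with an IDR summit.

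In the BMP pathway 2 of 19 genes had a member, the ligand gene dpp, ranking 8022, 6610 and 5629, and shn, which encodes a zinc finger cofactor of the pathway, ranking 7448, 6155 and 6526. In the EGF receptor pathway 1 of 21 had one, the ligand gene spi, in a 5′ UTR 59 bp from a start, ranking 9355, 5122 and 8587. In the Notch pathway 1 of 16 had one, fng, a glycosyltransferase gene, ranking 7446, 7537 and 8212. No gene of the Wnt list (23 genes) or the Hippo list (14 genes) had one. Over all protein-coding genes the share with a member was 1.93%, and that with an IDR summit was 25.5%. All of dpp, shn, spi and fng had an IDR summit at a start as well, as did 12 of the 19 BMP, 13 of the 21 EGF receptor and 12 of the 16 Notch pathway genes.

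The housekeeping genes with a member and no IDR summit named here were eIF1A (1 of 52 translation factors), Prosbeta2 (1 of 48 proteasome genes), AspRS (1 of 32 aminoacyl-tRNA synthetases) and mRpL39, mRpL30 and mRpL17 (3 of 73 mitochondrial ribosomal proteins). An IDR summit was found at 14 of the 52, 3 of the 48, 8 of the 32 and 16 of the 73 genes of these lists, so most of their genes lacked one. Of all 13945 protein-coding genes, 1.93% had a member and 25.5% an IDR summit. The eIF1A member ranked 5203, 5789 and 8762. A single member served both Prosbeta2 and mRpL39, and ranked 4881, 6599 and 8999. The AspRS, mRpL30 and mRpL17 members lay nearer to the starts of Nmda1, HLH4C and Tudor-SN.

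Of the cell cycle list 2 of 24 genes had a member: Cdk4, without an IDR summit, ranking 7556, 6481 and 9427, and E2f1, with one, ranking 9379, 5815 and 5379. Of the neuronal list 2 of 19 had one: futsch, a microtubule-associated protein gene without an IDR summit, ranking 4528, 5407 and 9442, and Syx1A, a syntaxin gene with one, ranking 6220, 8756 and 6809. Of the muscle list 1 of 18 had one, Actn, at a summit nearer to usp. None of 230 chemoreceptor, 122 cuticular protein, 33 digestive protease, 16 heat shock or 29 chromatin remodelling and transcription machinery genes had one. The share over all protein-coding genes was 1.93%. It lay inside the exact intervals of the cell cycle (1.03 to 27.0%), neuronal (1.30 to 33.1%) and muscle (0.141 to 27.3%) lists. Of these lists without a member, only chemoreceptors had an upper limit, 1.59%, below 1.93%. The other upper limits were 2.98%, 10.6%, 20.6% and 11.9% in the order above, so those zeros cannot separate a list from all genes. No list was tested. Over all 22 lists, 20 genes had a member, 11 of them with an IDR summit.

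Of 374 members over 1000 bp from a protein-coding start, the nearest coding gene had an IDR summit at a start for 235 (62.8%), against 65.0% for unshared weaker peaks and 69.1% for the weakest IDR peaks. In introns the share was 76.0% of 200 members, 75.3% of unshared weaker peaks and 80.0% of the weakest IDR peaks. In intergenic sequence it was 48.0% of 127 members, 51.7% of unshared weaker peaks and 49.5% of the weakest IDR peaks. These shares were not tested. An IDR summit lay within 5000 bp of 320 members, and the median distance was 4601.5 bp.

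Of 529 nearest coding genes, 460 had 1 member, 60 had 2, 6 had 3 and 3 had 4. The genes with 3 or 4 are named here because of these counts, chosen after their values were seen, and the counts were not compared with those of unshared peaks. The 3 with 4 were Eip75B, an ecdysone-induced nuclear receptor gene, the pair-rule gene hry and CG46443. The 6 with 3 were bnl, the homeobox genes hth and lab, the Wnt ligand gene wg, CG33648 and CG45088. In Eip75B, hry and CG46443, 2 of the 4 members shared their replicate ranks, so the replicates hold 3 separate peaks there.

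The Eip75B members ranked 5592, 5671, 6515 and 11978 in the pool, the last 2 sharing replicate ranks of 7627, 5140 and 8832. The hry members were intergenic, 8028 to 15064 bp downstream of its start, and the strongest ranked 5160, 6227 and 8145 in the replicates. The 3 bnl members were intronic, 12479 to 15834 bp downstream. The strongest wg member, 12067 bp upstream, ranked 8096, 5878 and 6805. The strongest hth member, in an intron 67442 bp downstream, ranked 4289, 7306 and 8984. Of all 610 members, 64 had another member within 1000 bp and 142 within 10000 bp.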

How the data were processed

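ChIP-seq peak lists of 3 biological replicates, numbered as in the labels, were used. Per the notes deposited with the samples, each permissive list was called against a control alignment, and the IDR list was made from the replicate and pooled lists; the sources used here do not give the caller, aligner or IDR threshold. The deposited signal is on the authors' caller scale, separate for each list, and was used to rank peaks within a list. The deposited −log10 q-value entered no test. Depth was unknown. Each list held 30000 peaks (IDR 5464).

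Summits were matched within 200 bp. Genes and starts came from Ensembl release 115 (BDGP 6.54), without transposon insertions, and sequence from Release 6, which share coordinates with dm6. Locations and 10 motifs were compared by two-sided Fisher exact tests (scipy 1.17.1) with Benjamini-Hochberg adjustment over 31 tests and a threshold of 0.05. Scripts were tested on simulated data. The intervals are exact (Clopper-Pearson, 95%).

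The members and gene lists were chosen with earlier results of these data known. Named genes were those nearest to the 20 members of highest signal, the 5 of best poorest rank, the 5 of largest rank spread, the 3 of lowest signal and the 3 on each side of the IDR limit, and up to 4 of each of 22 lists. Of the list names, 5 were not matched. The result for 1 list is not reported here. The CG5674 sequence was added after its ranks were seen. The CG31248 sequence, which the rule also named, lay mostly in a UTR and is not printed.

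The alternatives were other numbers of replicate peaks, summit, IDR and start distances, comparison sets, motif windows and start sites, the dm3 lists, omission of close members, and each replicate not required. Restriction to members that were the nearest pooled summit in every replicate was chosen after seeing the data.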

Additional observations from a re-analysis of the deposited data

How the results depend on the processing

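The size of the set depended on every limit of the rule. Against 610, it was 1330 to 1364 when 1 replicate was not required, and 0, 1961 and 6286 with the 5000, 15000 and all peaks of each replicate. It was 400 and 990 with summits matched within 100 and 400 bp, 934 with no distance kept from IDR summits and 999 on the dm3 lists. With 0 members no share could be computed. The 4 location differences from IDR peaks kept their direction and passed under every alternative run: -29.3 to -23.1 points within 100 bp, -34.3 to -21.1 within 1000 bp, 12.2 to 17.4 in introns and 12.3 to 14.7 in intergenic sequence. In every run the members were still weaker than all IDR peaks, so these runs cannot separate location from signal. The causes of the changes below were not tested.

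All values that follow are differences in percentage points. Against unshared peaks, the shares within 100 bp and 1000 bp of a start, in introns, in intergenic sequence and near an IDR summit differed by 10.3, 17.5, -6.89, -6.75 and 5.66 and passed when all unshared peaks in the signal range were used. Against those nearest in pooled rank the first 4 were -4.75, -4.10, 0.492 and 3.44, reversed. With 1 replicate not required, the ranges were -1.30 to 7.34 within 100 bp, 0.793 to 9.26 within 1000 bp, -7.22 to 0.631 in introns and 1.97 to 3.41 near an IDR summit. Of these, the shares within 100 bp, within 1000 bp and near an IDR summit passed without replicate 2 and without replicate 3, and introns without replicate 3. Nearest pooled summits alone gave 6.06 within 1000 bp and 3.89 near an IDR summit, a start distance of 2000 bp gave 8.23, and 15000 peaks gave 3.02 within 100 bp and 2.60 for X. The X difference from IDR peaks, 0.0723, was -0.0253 without close members, -0.464 for nearest pooled summits and -1.50 to -0.614 with 1 replicate not required.

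Against unshared peaks, the number of motifs passing rose from 0 to 2 with all unshared peaks, 1 without close members, 2 with 15000 peaks, 1 in 100 bp windows and 0 to 2 with 1 replicate not required. Against IDR peaks it rose to 4 with 15000 peaks, 6 in 400 bp windows and 2 to 3 with 1 replicate not required. Motif differences that reversed against unshared peaks were DRE and TATA with all unshared peaks (0.401, 3.11), GAF with those nearest in rank (-1.64), and GAF, GT repeat, DRE and TATA with 15000 peaks (-0.541, -1.73, 0.226, 1.37). So did TATA for nearest pooled summits (0.425), DRE and AP-1 in 100 bp windows (0.104, -0.439) and GT repeat in 400 bp windows (-0.556). With 1 replicate not required, the ranges were -2.33 to 5.21 for GAF, -1.06 to 1.16 for GT repeat, -0.405 to 0.338 for DRE, -0.679 to 0.172 for M1BP, -0.466 to 0.152 for Zelda, 0.298 to 2.28 for TATA and 1.00 to 5.71 for initiator, which passed without replicate 2 and without replicate 3, as GAF did without replicate 3. Against IDR peaks, DRE reversed with 15000 peaks (0.0474), initiator and AP-1 in 100 bp windows (3.30, -0.514), and with 1 replicate not required Zelda ranged from -0.310 to 0.226, GAF from -7.52 to -2.39 and initiator from -7.12 to -4.40. No paired analysis was possible because the study has 1 group. Since read depth was unknown, how it limits these counts is unknown too.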
